A study of Homo sapiens with 6 samples.

Results

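The 9 genes described here belong to the neural crest programme and were read by symbol from a bead-array table of 34692 gene rows: SOX8, SOX9, SOX10, TFAP2A, TFAP2B, SNAI2, TWIST1, ERBB3 and ETS1. All 9 had a row under their current symbol. The study compared 3 arrays of control neural cells with 3 arrays of isthmic organizer (IsO)-like cells, where the isthmic organizer is the signalling centre between midbrain and hindbrain. Both groups came from H9, a human embryonic stem cell line, so the arrays stand for 1 line. Per the labels' protocols, which are worded alike for both groups, floating aggregates received dorsomorphin at 5 µM and SB431542 at 10 µM, inhibitors of BMP and of activin/TGF-beta receptors, until they were plated on day 4 and cultured for a further 5 days. IsO-like cells additionally received FGF8 at 100 ng/ml and the GSK3 inhibitor CHIR99021, for which the labels give a span of 0 to 1.2 µM and not the dose of the arrayed cells.

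The neural crest is a transient population that arises at the border of the neural plate, leaves the dorsal neural tube by an epithelial-to-mesenchymal transition and gives rise to peripheral neurons and glia, melanocytes and facial skeleton. Wnt, FGF and BMP signals set up the border, where factors such as PAX3, MSX1 and TFAP2A act before the crest specifiers SNAI2, SOX9, SOX10 and ETS1. SOX8, SOX9 and SOX10 form the SOXE group of HMG-box factors. None of the 9 genes is private to crest: SOX9 and SOX8 are also made by neural progenitors and glia, TFAP2A by surface ectoderm, and TWIST1 by mesenchyme.

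Median intensities lay between 144 and 157, and each array detected 13999 to 15232 rows (detection p-value below 0.05 against its negative controls). Values below are deposited linear intensities or, where log2 is named, intensities after background correction and quantile normalisation. The array numbers 1, 2 and 3 are the replicate numbers of the labels, which do not state that same-numbered arrays are paired. Deviations from the group means correlated most between the arrays numbered 1 (r = 0.87). Control 2 correlated more with IsO 3 (0.70) than with IsO 2 (0.39), so pairing at number 2 is not borne out. A fit with the number as a block compares each IsO array with the control array of its number. It rests on these same data and is given beside the fit without it. Over the 14548 rows tested, 0.811% were called higher and 0.488% lower in IsO-like cells without the block (limma, Benjamini-Hochberg adjusted p below 0.05). With the block the shares were 3.20% and 2.42%. The labels do not state separate cultures, so p-values measure the spread between these arrays, which may be technical. RNA was bulk, so fewer cells of a type and less RNA per cell cannot be told apart.

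TWIST1 was the 1 member of the 8 tested that was called without the block, and none was called lower. With the block 5 were called higher, namely SOX8, SOX10, TFAP2A, SNAI2 and TWIST1, and none lower. The median log2 difference of the 8 was 1.25, against -0.01 over all rows tested. IsO arrays lay wholly above control arrays for 3 of the 8 (SOX8, TFAP2A and TWIST1) and for 8.20% of all rows tested, and wholly below for none, against 7.24% of rows. In 5 of the 8 each IsO array exceeded the control array of its number, which held for 23.1% of rows. TFAP2B, which also met both conditions, did not pass the filter on detection p-values and was not tested without a further setting. TFAP2A passed that filter through the IsO arrays, where it was high. The calls with the block, the 2 counts of arrays and the median include it, so they are not separate from that selection.

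**Figure D1:**
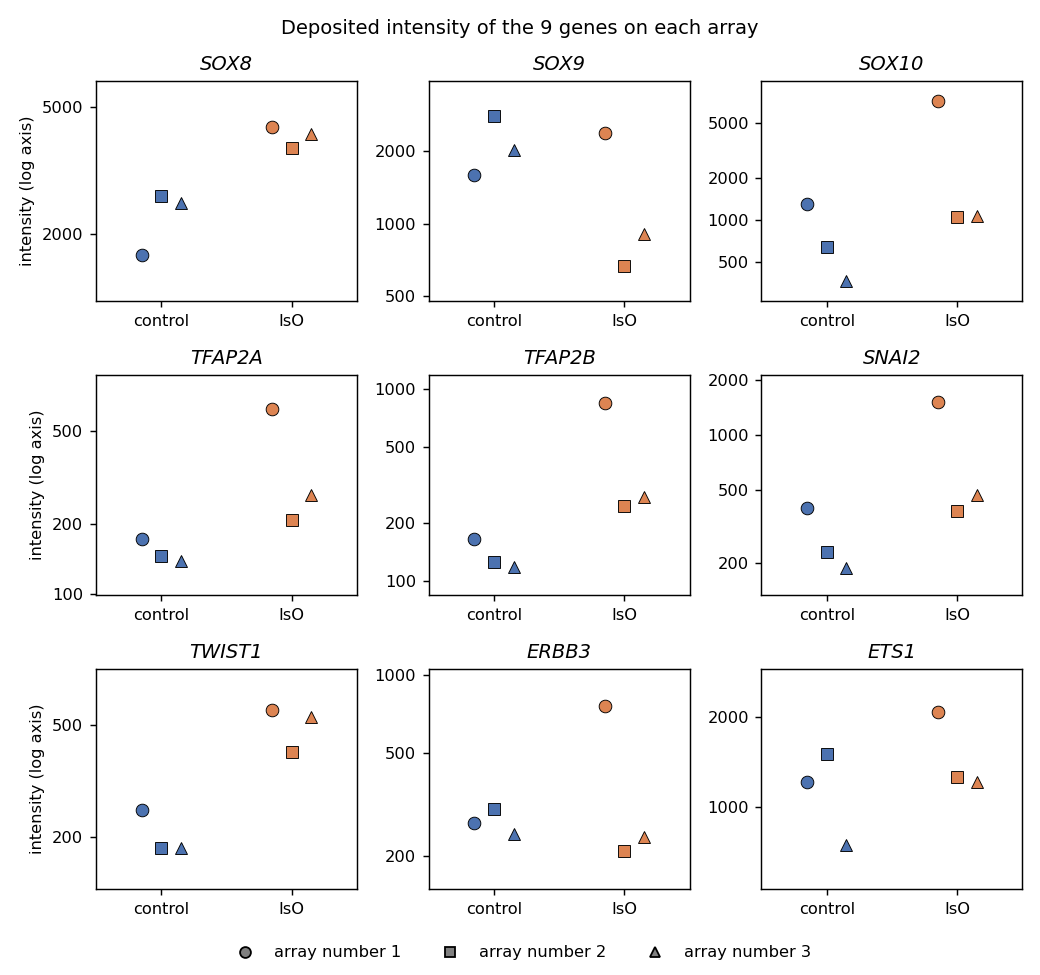
Deposited linear intensity (log axis, a separate range in each panel) of the 9 genes on the 3 control and 3 IsO arrays, with 1 point per array and its shape giving the array number. SOX8, TWIST1, TFAP2A and TFAP2B have every IsO array above every control array. SOX9, SOX10, TFAP2A, TFAP2B, SNAI2 and ERBB3 have IsO 1 far above IsO 2 and IsO 3.

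The TFAP2 genes encode the AP-2 factors that act early at the border and, in crest, keep specifier genes active. They are shown first by sequence because both were low in control cells and higher on every IsO array, and because both had a promoter in the RefSeq table (GRCh38.p14), as 2 of the 9 members did. The lines give the 250 bases before the listed start, 5′ to 3′ on the gene's strand, for TFAP2A at chr6:10412392-10412641 on the minus strand (the second of its 2 listed starts) and for TFAP2B at chr6:50818621-50818870 on the plus strand. Capitals mark matches to ACAAT, a core recognised by SOX factors, on either strand.
TFAP2A: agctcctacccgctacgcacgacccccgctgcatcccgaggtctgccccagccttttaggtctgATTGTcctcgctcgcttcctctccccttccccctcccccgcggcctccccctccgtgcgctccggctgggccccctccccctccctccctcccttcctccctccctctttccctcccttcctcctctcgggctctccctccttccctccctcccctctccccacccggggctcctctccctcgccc
TFAP2B: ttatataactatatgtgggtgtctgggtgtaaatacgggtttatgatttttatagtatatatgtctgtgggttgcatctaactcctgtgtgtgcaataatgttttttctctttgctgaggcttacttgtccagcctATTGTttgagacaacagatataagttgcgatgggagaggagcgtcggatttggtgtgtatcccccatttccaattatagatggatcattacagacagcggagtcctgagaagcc
Each window held 1 match, on the reverse strand, beginning 186 bases before the start in TFAP2A and 114 bases before it in TFAP2B. Of 35116 promoters of this length, 24.6% held at least 1. The other letters searched on both strands were GCCNNNGGC for TFAP2, CANNTG for the E-box of SNAI2 and TWIST1, and CTTTGA for TCF/LEF, none of which overlapped a SOX match. None of them was found in these windows or in the first TFAP2A window, which also lacked ACAAT, and they occurred in 19.8%, 61.8% and 11.2% of all promoters. A match is letters only and shows no binding.

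TFAP2A was at 172, 146 and 138 on control arrays 1, 2 and 3 and at 623, 208 and 265 on the IsO arrays. It was above background on 1 control array and on all 3 IsO arrays, so its control level is mostly background. The IsO arrays alone carried it through the filter, so its p-values are not separate from that selection. The log2 difference was 1.94 ± 0.50 (SE, 3 arrays per group, limma adjusted p = 0.187, or 0.0211 with the block). By array number the differences were 2.48, 1.36 and 1.98. The groups did not overlap, and IsO 1 stood well above the other IsO arrays. Without IsO 1 alone the difference was 1.42 (adjusted p = 0.172). Without both arrays numbered 1 it was 1.67 and was not called (adjusted p = 0.0509, or 0.156 with the block). The difference was 1.01 when no background was removed (adjusted p = 0.0216 with the block). It was 0.12 when the background was estimated from all rows, which left it uncalled with the block (adjusted p = 0.298).

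TFAP2B had 165, 125 and 118 on control arrays and 844, 247 and 272 on IsO arrays. Its log2 means were 5.36 ± 0.56 in control and 7.96 ± 1.08 in IsO-like cells (SD, n = 3), a difference of 2.60 with values of 3.19, 2.21 and 2.39 by array number. Every IsO array exceeded every control array. The row combined several probes, and its detection p-value was below 0.05 on IsO 1 alone although IsO 2 and IsO 3 exceeded the lowest intensity of a detected 1-probe row. Rows of several probes were then admitted by signal, which took 15544 rows into the fit. The 3 IsO arrays alone carried TFAP2B through that filter, so its p-values are not separate from that selection. The limma adjusted p was 0.118, and 0.0103 with the block, which called 3.38% of those rows higher. That combination with the block was chosen after seeing the data. The difference was 1.44 when no background was removed and 0.18 under the all-row background.

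SOX10, which directs glial and melanocyte fates of the crest, was at 1302, 641 and 369 on control arrays and at 7094, 1052 and 1074 on IsO arrays. All 6 values were above background, and control 1 was higher than IsO 2 and IsO 3, so the groups overlapped. Log2 means were 9.20 ± 1.15 in control and 10.88 ± 1.57 in IsO-like cells (SD, n = 3). The log2 difference was 1.68 ± 0.89 (SE, limma adjusted p = 0.681) without the block. With the block, which assumes a pairing by number that the labels do not state, the SE was 0.27. SOX10 was then called higher (adjusted p = 0.0377), with differences of 2.28, 0.97 and 1.79 by array number. Without IsO 1 alone the difference was 0.77 (adjusted p = 0.704), the lowest of the 6 values with 1 array left out, which reached 2.29 without control 1. Without both arrays numbered 1 it was 1.38, and it was not called (adjusted p = 0.141, or 0.216 with the block), and without those numbered 3 the block did not call it either (adjusted p = 0.0811).

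SOX8, the SOXE gene with the mildest loss-of-function phenotype in mice, was at 1715, 2630 and 2502 on control arrays and at 4324, 3723 and 4133 on IsO arrays. The groups did not overlap, and the IsO arrays differed little among themselves, at 11.92 ± 0.02 on the log2 scale (SD, n = 3) against 11.10 ± 0.22 in control. The difference of 0.83 ± 0.19 (SE) was a fold of 1.77 and was not called without the block (limma adjusted p = 0.126). With the block SOX8 was called higher (adjusted p = 0.0418), with log2 differences of 1.07, 0.72 and 0.69 at array numbers 1, 2 and 3. That call was lost when any array number was left out (adjusted p = 0.216, 0.0748 and 0.0879 without numbers 1, 2 and 3).

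SOX9, which the crest needs for survival and which neural stem cells also use, was not called in either fit over all 6 arrays. Its intensities were 1590, 2781 and 2020 on control arrays and 2375, 668 and 904 on IsO arrays. IsO 2 and IsO 3 lay below every control array, while IsO 1 lay among them. The log2 difference was -1.01 ± 0.46 (SE, limma adjusted p = 0.563, or 0.247 with the block) and did not pass. By array number it was 0.27, -2.03 and -1.27. Without both arrays numbered 1 SOX9 fell by 1.65 ± 0.22 (adjusted p = 0.0475 without the block), where 1.09% of rows were called lower. With the block in those 4 arrays the adjusted p was 0.179. With 1 array left out the difference was between -1.52 without IsO 1 and -0.67 without IsO 2, with no call. The 3 SOXE genes therefore had differences of 0.83, -1.01 and 1.68, and a difference between them was not tested.

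**Figure D2:**
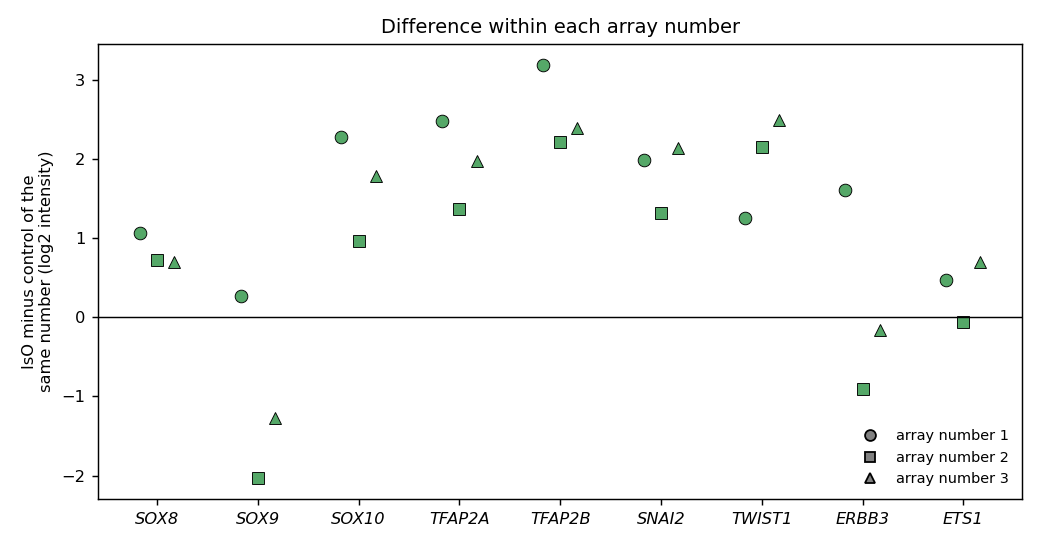
Log2 intensity of each IsO array minus that of the control array with the same number, for the 9 genes, with 1 point per array number. SOX8, SOX10, TFAP2A, TFAP2B, SNAI2 and TWIST1 are above 0 at every number, and SOX9 and ERBB3 are above 0 at number 1 and below it at numbers 2 and 3.

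SNAI2 and TWIST1 are repressors of epithelial genes that act in crest delamination. SNAI2 was at 399, 229 and 188 on control arrays and at 1517, 384 and 469 on IsO arrays. Control 1 exceeded IsO 2 in intensity, so the groups overlapped, and the array numbered 1 was the highest of its group in both. The log2 difference was 1.82 ± 0.66 (SE, 3 arrays per group, limma adjusted p = 0.408). With the block, which assumes a pairing by number, the SE was 0.20. SNAI2 was then called higher (adjusted p = 0.0173), with 1.99, 1.31 and 2.14 by array number. Without IsO 1 alone the difference was 1.20 (adjusted p = 0.505). Without both arrays numbered 1 it was 1.73 (adjusted p = 0.0509, or 0.179 with the block), and under the all-row background it was 0.33 (adjusted p = 0.351 with the block).

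TWIST1, a basic helix-loop-helix factor of cranial crest and mesenchyme, was at 248, 182 and 182 on control arrays and at 567, 401 and 534 on IsO arrays. Control 2 and control 3 lay near the lowest intensity of a detected 1-probe row, 164.6 and 160.4 on those arrays. The size of the difference therefore depended on the background correction. The groups did not overlap, and unlike SNAI2 the IsO arrays lay close together, at 8.53 ± 0.24 on the log2 scale against 6.57 ± 0.56 in control (SD, n = 3). TWIST1 rose by 1.97 ± 0.32 (SE, limma adjusted p = 0.0457, or 0.0254 with the block), a fold of 3.91. By array number the difference was 1.25, 2.15 and 2.50, so it was smallest at number 1, where 6 of the other 8 members had their largest. The call lay near the threshold. Without control 1 the adjusted p was 0.0155, and without control 2, control 3, IsO 1, IsO 2 or IsO 3 it was 0.197, 0.226, 0.0984, 0.20 and 0.178. It differed by 1.22 when no background was removed (adjusted p = 0.0402) and by 0.18 under the all-row background (adjusted p = 0.109).

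ERBB3, the neuregulin receptor of crest-derived glial precursors, was at 268, 304 and 242 on control arrays and at 757, 208 and 236 on IsO arrays. IsO 1 was high, while IsO 2 and IsO 3 lay below every control array. The log2 difference was 0.18 ± 0.59 (SE, limma adjusted p = 0.990, or 0.851 with the block), and without IsO 1 it was -0.52 (adjusted p = 0.482). ETS1, which acts in cranial crest delamination and also in endothelium, was at 1212, 1498 and 747 on control arrays and at 2067, 1260 and 1208 on IsO arrays. These values overlapped, and the log2 difference was 0.37 ± 0.33 (adjusted p = 0.889, or 0.296 with the block). ETS1 combined several probes and had a detection p-value below 0.05 on 1 control and 2 IsO arrays, although every array exceeded its lowest intensity of a detected 1-probe row.

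**Figure D3:**
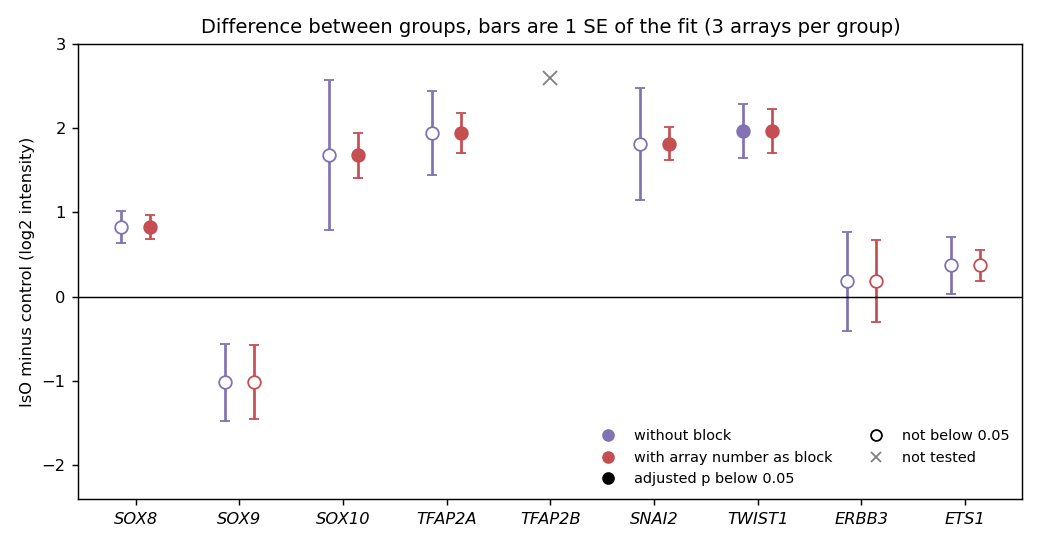
Difference between IsO-like and control cells on the log2 scale for the 9 genes, with bars of 1 SE from limma's fit over all rows (3 arrays per group), without and with array number as a block. The block leaves the differences in place and shortens the bars most for SOX10 and SNAI2, and TFAP2B is drawn without a bar because it was not tested.

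On the normalised log2 scale the array numbered 1 was the highest of its group for 5 of the 9 members in control and 7 of the 9 in IsO-like cells. The same held for 33.3% and 30.4% of all rows tested. SOX10 on IsO 1 was 2.72 above the mean of IsO 2 and IsO 3 on the log2 scale, ERBB3 2.12 and TFAP2B 1.87. In control the largest such gaps were 1.82 for SOX10 and 1.58 for SNAI2. Some marker lists moved with array number or group. Of 6 markers of migrating crest, 5, 4 and 4 were above background on control arrays 1, 2 and 3 and 6, 5 and 5 on the IsO arrays. Their summed normalised intensity was 1972, 1035 and 748 in control and 9213, 1522 and 1531 in IsO-like cells. The list holds the members SOX10 and TFAP2B, and SOX10 was its brightest marker on every array, so the sum is not separate from the members. Of its other markers, FOXD3 and CDH6 had log2 differences of 0.99 and 0.94, and NGFR and ITGA4 of -0.485 and -0.041. Of 7 mesenchyme markers, 3 were above background on each control array and 6, 3 and 4 on IsO 1, 2 and 3, POSTN on none, and their summed normalised intensity was 697 to 932 in control and 3553, 1324 and 1387 in IsO-like cells. Of 6 neuron markers 4 to 5 were above background in control and 4 to 6 in IsO-like cells, with sums of 12752 to 16749 and 21036 to 23777. All 6 neural progenitor markers were above background on every array, with sums of 92060 to 112080 in control and 58195 to 76046 in IsO-like cells. Of 10 markers of surface ectoderm and placodes 4 to 5 were above background in either group, GATA3, GRHL2 and GRHL3 on no array, with sums of 5288 to 7594 in control and 3277 to 4147 in IsO-like cells. Of 5 pluripotency markers, 2 to 3 were above background in control and 1 to 3 in IsO-like cells, NANOG on none, with sums of 2090 to 2527 and 2078 to 2313. Of 6 mesoderm and endoderm markers 0 to 1 and 1 to 2 were, with sums of 113 to 156 and 224 to 457, and TBXT, EOMES, GATA6 and SOX17 were above it on no array. The part of these cells in the members' differences was not tested.

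Among genes of the neural plate border, MSX1, MSX2 and PAX3 rose in IsO-like cells. Of 10 listed, 8 were tested. Without the block 3 were called higher and 5 did not pass, where 0.811% of all rows tested were called higher. With the block 4 were called higher and 1 lower, against 3.20% and 2.42% of rows. The median log2 difference was 1.29. MSX2 and MSX1, homeobox genes of the border and dorsal midline, rose by 3.54 ± 0.37 and 2.99 ± 0.47 (SE, limma adjusted p = 0.0102 and 0.0429). PAX3, a border factor upstream of SNAI2 in frog embryos, was not above background on any control array and was at least 2.41-fold higher (adjusted p = 0.0181). GBX2 was likewise at least 1.97-fold higher (adjusted p = 0.0662, or 0.0287 with the block). The IsO arrays alone, where they were high, carried PAX3 and GBX2 through the filter, so their p-values are not separate from that selection. The count of higher calls with the block and the median include both, and the count without the block includes PAX3. DLX3, a border and epidermal homeobox gene, differed by -0.66 (adjusted p = 0.418, or 0.0496 with the block). With any 1 array left out, the call of MSX1 was kept only without control 1, that of MSX2 was lost without control 2, IsO 2 or IsO 3, and that of PAX3 also without control 3 (highest adjusted p = 0.206, 0.0818 and 0.120). Under the all-row background PAX3 differed by 0.07 (adjusted p = 0.149), and MSX1 and MSX2 were not called either (adjusted p = 0.141 and 0.053). ZIC1 was not tested, being above background on 2 arrays, both IsO.

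Among other crest specifiers and cofactors, MYC fell. Of 12 listed 5 were tested, with 1 lower and 4 not past the threshold, and with the block 2 higher and 1 lower. Over all rows tested 0.811% were called higher and 0.488% lower, or 3.20% and 2.42% with the block. MYC, a progenitor and early crest factor, fell by 1.90 ± 0.31 (SE, limma adjusted p = 0.0497), a call kept without IsO 1 and lost without any other single array (adjusted p up to 0.249). ID3, a BMP target, differed by 0.97 (adjusted p = 0.0632, or 0.0288 with the block). FOXD3, an early specifier, was above background on IsO 1 alone, and SNAI1, SOX5, SOX6 and TFAP2E on no array. Of 15 adhesion and receptor genes of migrating crest 12 were tested and none passed with or without the block, with a median of 0.57. The largest differences there were 1.54 ± 0.83 for KIT, a receptor of melanoblasts, and 1.23 ± 1.12 for EDNRA, the endothelin receptor of facial crest (adjusted p = 0.692 and 0.892). Without IsO 1 they were 0.63 and -0.062.

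Many genes of the crest's later fates and of the members' partners were dim. Of 9 glial and melanocyte genes with a row, 6 were above background on no array, including MITF, DCT, TYR and TYRP1 of pigment cells and S100B and GFAP of glia. The 3 tested did not pass, among them FABP7 at -0.43 ± 0.37 (SE, limma adjusted p = 0.882). None of 3 tested cartilage genes passed, with MIA at 0.28 and COL2A1, a SOX9 target, at -0.24 (adjusted p = 0.975 and 0.920). Of ERBB receptors and neuregulins only NRG3 was tested, at 0.58 ± 0.28 (adjusted p = 0.599), and ERBB4, NRG2 and NRG4 were above background on no array. ERBB2, NRG1 and EGFR combined several probes and did not pass the filter on detection p-values. ERBB2 was not dim, with intensities of 1681, 3143 and 3196 in control and 1511, 2019 and 2481 in IsO-like cells. Its log2 difference was -0.49, and the groups overlapped. NRG1 differed by -1.25, with IsO arrays wholly below control arrays, and EGFR by 0.70, with IsO arrays wholly above.

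Outside the SOXE group, no tested SOX gene was called higher in either fit, against 0.811% of all rows tested, or 3.20% with the block. Of 14 listed 8 were tested, 2 fell and 6 did not pass, where 0.488% of all rows were called lower. With the block 3 were called lower, against 2.42% of rows. The median log2 difference was -0.98. SOX11, SOX12 and SOX13 differed by 0.195, 0.078 and 0.534, and the other tested genes were negative. Of 29 alternative settings 1 called 1 gene of the list higher. SOX2, a progenitor factor, fell by 1.43 ± 0.22 and SOX4, of the SOXC group, by 1.25 ± 0.20 (SE, limma adjusted p = 0.0391 and 0.0438). Both calls were lost when any 1 array was left out (adjusted p from 0.0621 to 0.206 for SOX2 and from 0.0788 to 0.245 for SOX4). Under the all-row background SOX2 and MYC were not called (adjusted p = 0.0747 and 0.0711). SOX15 differed by -1.55 ± 0.38 (adjusted p = 0.163, or 0.0159 with the block).

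**Figure D4:**
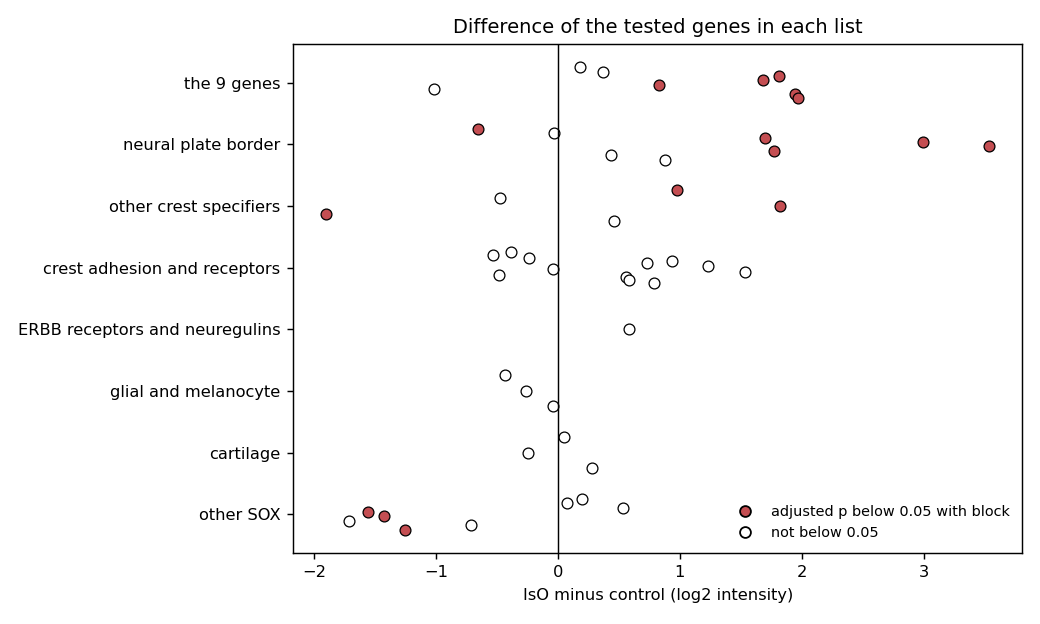
Log2 difference between IsO-like and control cells for each tested gene of the 9 members and of the related lists, where a filled point has an adjusted p below 0.05 with array number as a block. Filled points lie to the right for the 9 genes and mostly to the right for the border list, and to the left for other SOX genes.

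By the Pearson correlation over the 6 arrays, computed against 6747 rows whose log2 values spanned at least 1, each tested member was matched with its 3 most similar rows. These correlations describe 6 arrays that share groups and array numbers. The rows most like TWIST1 were OLIG3, a dorsal progenitor factor, TKTL1 and the hindbrain gene HOXA2 (r = 0.996, 0.988 and 0.988), which differed by 3.90, 1.91 and 2.84. Those most like TFAP2A included TRIL and RBBP4 (r = 0.992 and 0.991), and those most like SNAI2 were ZMYND8, CDCA7L and CTSC (r = 0.996, 0.991 and 0.991). SOX10 was most like DISP1, DDHD2 and MTAP (r = 0.998, 0.997 and 0.994), and SOX8 most like RBPMS2, ASAP3 and C20ORF55 (r = 0.999, 0.997 and 0.996). SOX9 was most like GFRA1, ZNF514 and HS.450769 (r = 0.981, 0.980 and 0.968), the first of which differed by -1.25. ERBB3 was most like COL11A2, LOC731932 and TP53INP1 (r = 0.982, 0.981 and 0.961), and ETS1 most like C15ORF44, PCNX and PPP3CC (r = 0.993, 0.980 and 0.975). No row appeared for more than 1 member.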

How the data were processed

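Expression was measured on 6 Illumina bead arrays of biotin-labelled RNA, and the submitters' processing notes list GenomeStudio 2011.1. The deposited table gave a linear intensity per gene row without background subtraction and, per the file headers, a detection p-value on each array. The authors' processed table held log2 intensities, which quantile normalisation of log2 values computed here matched to within 0.00754. Detection p-values in whole steps of 1/n over the negative controls marked 27089 rows as 1 probe and 7603 as several. A row at 0 on every array, such as SOX8 or SOX9, could hold either.

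Intensities were corrected with normexp in limma 3.58.1 (R 4.3.3, background from detection p-values of 1-probe rows, offset 16), quantile normalised and put on the log2 scale. Rows detected (p-value below 0.05) on 3 or more arrays were tested with lmFit and eBayes, with Benjamini-Hochberg adjustment over all 14548. A several-probe row also counted as above background where its intensity reached the lowest of a detected 1-probe row. A gene above background on no array of a group has an "at least" fold, against the higher of its own value and that lowest value per array. Quantile normalisation hides a shift of most genes, and the offset compresses differences of dim genes. The fits were tested on simulated data with independent noise on each array, so the block was not tested under deviations shared by array number. Same-numbered arrays had correlated deviations from their group means (r = 0.87, 0.39 and 0.65 for numbers 1, 2 and 3), which is the basis of the block, although control 2 with IsO 3 gave 0.70 and control 3 with IsO 2 gave 0.48. Members, lists and tests were chosen with earlier results of these data known. All members are named, then list genes called with or without the block (otherwise the 2 largest differences), and the 3 rows most like each tested member. Of 124 listed genes 123 had a row, TBXT under the name T, and PMEL was not analysed here. Some list genes are not reported here.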

Additional observations from a re-analysis of the deposited data

How the results depend on the processing

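Without the block the members called higher numbered 1, and 0 with the background from all rows, with median scaling, without a filter and with detection on all arrays, and 5 with array weights. Leaving out arrays gave 0 to 1 members without the block, and 0 to 4 with the block and an array number left out. The replicate block gave 5, or 6 with several-probe rows kept by signal, 5 without background correction, 5 from the authors' processed table and 0 with the background from all rows. Members called lower numbered 0, or 1, which was SOX9, with array weights and without replicate number 1. Rows called higher and lower, 118 and 71, became 62 and 39 with the background from all rows, 49 and 32 with detection on all arrays, and 2320 and 2284 with array weights, whose iteration stopped before it converged. The replicate block gave 466 and 352, or 526 and 414 with several-probe rows kept by signal, 698 and 612 without background correction and likewise from the authors' processed table, and 58 and 46 with the background from all rows. Leaving out arrays, with or without the block, gave 0 to 327 higher and 0 to 236 lower. The block gave 327 and 236 without number 2, and 219 and 167 without number 3. Without both arrays of number 2 or of number 3 no row was called without the block (574 and 683 rows had an unadjusted limma p below 0.05), and without number 1 none was called with it (2401 rows), and 193 and 159 without it. ERBB3 reversed to -0.68 with array weights, and leaving out arrays spanned -0.53 to 0.73, as it did for EDNRA from -0.062 to 2.04 and for MIA from -0.31 to 0.72 (-0.10 without number 1). The other 8 members kept their sign in every setting run, SOX8 from 0.70 to 1.12 and ETS1 from 0.05 to 0.59. TWIST1 was called in 16 of 29 settings. Fits that combine the block with another choice, or with an array number left out, were chosen after seeing the data. Median scaling moved the median difference of all rows from -0.01 to 0.01. With array weights 50.4% of calls were higher, against 62.4%. TFAP2A and TFAP2B lay near background in control cells, as did TWIST1 on control 2 and control 3, which limits their differences to what the correction allows.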

Other observations

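CDH6 and FOXD3, crest-related genes outside the called set that are named here after their values were seen, had their highest level on IsO 1. CDH6, a cadherin of premigratory crest, had intensities of 441, 246 and 210 on control arrays 1, 2 and 3 and 1934, 265 and 243 on the IsO arrays, a log2 difference of 0.94 (limma adjusted p = 0.920). FOXD3 was at 384 on IsO 1 and between 108 and 139 on the other arrays. NGFR, a receptor of migrating crest, differed less between arrays, with 265, 333 and 359 in control and 360, 212 and 280 in IsO-like cells.

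The deposited TWIST1 intensity was the same to its last digit on control 2 and control 3. Over 15 pairs of arrays it was the 1 row of 34692 with an equal value on any pair, and its detection p-values on those arrays differed, at 0.0195 and 0.0156.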
